A study of Mus musculus with 12 samples.

Results

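The genes Glo1, Btbd9, Gpnmb, Nnt, Alad and Hdhd3 carry published structural or nonsense variants that separate the inbred mouse strains C57BL/6J (B6) and DBA/2J (D2). They were listed by name for those variants, and all 6 were found among the 22236 genes of the count table. Messenger RNA was sequenced from the hippocampus of 12 adult male mice, which received AAV9 at an age of 3 to 5 months and were killed at least 6 weeks later. Each strain contributed 3 mice injected with AAV9-shRNA-Hp1bp3 (KD), a hairpin RNA against the chromatin protein gene Hp1bp3, and 3 injected with AAV9-scrmb-shRNA (Ctrl), a scrambled hairpin. Every mouse therefore carried a virus, and no uninjected animal was included. All animals were males of 1 inbred line per strain, and the hairpin acts only in cells that the virus reached.

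Several of the members are textbook examples of strain variants. Glo1 encodes glyoxalase 1, the first enzyme that detoxifies methylglyoxal, a by-product of glycolysis, and lies in a tandem duplication described in D2. The duplication also takes in part of the neighboring Btbd9, a BTB domain gene linked to restless legs syndrome in humans. Alad, the second enzyme of heme synthesis, and Hdhd3, a little studied member of the haloacid dehalogenase (HAD) family of hydrolases, share another duplication described in D2. Gpnmb encodes a transmembrane glycoprotein of melanosomes and of phagocytic macrophages and microglia, and D2 carries a premature stop codon in it that is known for its part in the pigmentary glaucoma of this strain. Nnt encodes nicotinamide nucleotide transhydrogenase, which makes NADPH in mitochondria, and several of its exons are deleted in B6. Extra gene copies are generally associated with more transcript, and a premature stop or lost exons with less, so the published variants give a higher level in D2 for Glo1, Btbd9, Nnt, Alad and Hdhd3 and a lower one for Gpnmb.

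The stop codon of Gpnmb is the variant that can be shown at the level of the base. In the reference annotation of the B6 genome (GRCm38, GENCODE M21), codon 150 of Gpnmb lies in exon 4 at chr6:49045385-49045387 on the plus strand. It is given here with 30 bases on either side, read from the reference 5′ to 3′, with the codon in capitals.
Gpnmb codon 150, B6 reference: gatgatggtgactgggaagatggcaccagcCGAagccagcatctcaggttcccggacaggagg
CGA codes for arginine, and a C-to-T change of its first base gives a stop codon. In the main transcript of 574 codons, 424 codons follow this position. The D2 genome was not analysed here, so the sequence shown is that of B6 only.

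All 6 are protein-coding genes. On chromosome 17 of GRCm38, Glo1 (ENSMUSG00000024026) spans bases 30584936 to 30626871 and Btbd9 (ENSMUSG00000062202) spans bases 30215524 to 30576488, both on the minus strand. On chromosome 4, Alad (ENSMUSG00000028393) spans bases 62509169 to 62519918 and Hdhd3 (ENSMUSG00000038422) bases 62499008 to 62503467, again both on the minus strand. Gpnmb (ENSMUSG00000029816) lies on the plus strand of chromosome 6 at bases 49036546 to 49070929. Nnt (ENSMUSG00000025453) lies on the minus strand of chromosome 13 at bases 119335448 to 119408997, and its longest coding sequence in this B6 annotation has 835 codons. The annotation holds another protein-coding entry named Nnt in the same region, ENSMUSG00000116207, which is absent from the count table. The Nnt values below are those of ENSMUSG00000025453 only, and the part of the other entry was not tested.

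The libraries held between 18.21 M and 39.42 M expected counts (median 32.38 M). Levels are given as CPM (expected counts of a gene per 1 M counts of its library) after TMM scaling, a factor per library that aligns the bulk of the genes. Hp1bp3, the target of the hairpin, stood at 308.2, 293.5 and 310.1 CPM in the B6 Ctrl libraries and at 185.4, 181.9 and 258.9 in B6 KD. In D2 it stood at 226.3, 214.9 and 233.8 CPM in Ctrl and at 176.9, 162.5 and 229.5 in KD. The library labelled D2 KD 3 thus lay within the range of D2 Ctrl, so each D2 knockdown result was also computed without it. The 8 markers of hippocampal neurons were all detected, with a summed level of 2320 to 3490 CPM. That sum hides strain differences in single markers. Zbtb20 was at 369 CPM in B6 and 38.3 in D2 (adjusted p = 2.07e-08 by edgeR, averaged over treatments). Prox1 was at 86.2 and 25.1 CPM (adjusted p = 0.0113). Markers of choroid plexus, a neighboring tissue, ranged from 71 to 5180 CPM in sum over the libraries, and both high and low libraries occurred in every group.

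The first question was whether each gene differed between the strains in the direction its variant gives. All 6 estimates had that direction, and 5 of the 6 genes passed the test averaged over treatments. The members were chosen with earlier results of these data known, so the shared direction is not an independent check. For Btbd9, duplicated only in part, the direction was an assumption. Glo1, Nnt, Alad and Hdhd3 were higher in D2 and Gpnmb was lower, while Btbd9 did not pass. Over the whole transcriptome 21.3% of the 15853 genes tested were called in this comparison, 8.64% as higher and 12.7% as lower in D2, so strain differences were common among genes in general. In the same 5 members the 6 D2 libraries did not overlap the 6 B6 libraries, a separation seen in 14.5% of all genes tested. Genes were tested with edgeR's quasi-likelihood method over the whole table with Benjamini-Hochberg adjustment, and an adjusted p-value under 0.05 was called. Reads of each strain were aligned to the genome of that strain, so a difference in transcript and a difference between the 2 references cannot be told apart.

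**Figure D1:**
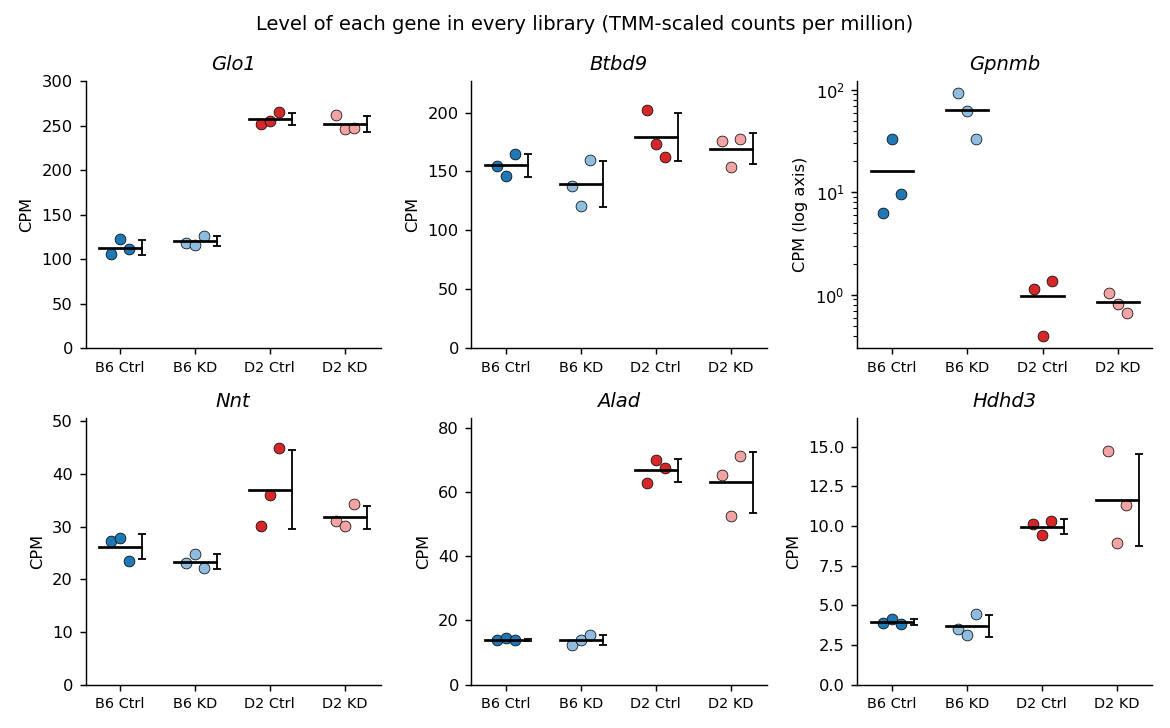
Level of each of the 6 genes in CPM (vertical axis; logarithmic for Gpnmb, from 0 for the others) in each library, 3 per group; horizontal lines are group means and error bars are 1 SD (not drawn for Gpnmb). B6 and D2 libraries separate without overlap for every gene except Btbd9.

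Glo1 was about doubled in D2. Its level was 105.7, 122.5 and 111.1 CPM in B6 Ctrl, and 118.2, 116.2 and 126.3 in B6 KD. In D2 it was 252.3, 255.1 and 265.1 CPM in Ctrl and 262.5, 246.3 and 247.9 in KD. Every D2 library lay above every B6 library, and the lowest D2 library was 1.95 times the highest B6 library. The fitted level in D2 was 2.19 times that in B6, with a 95% interval of 2.01 to 2.37 (log2 fold change 1.13, SE 0.05, adjusted p = 4.4e-08 by edgeR). Of all tested genes, 9.42% differed by 2-fold or more between the strains. Glo1 was also steady between mice, with an SD of 2.61% to 7.58% of the mean within the groups.

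Btbd9, which overlaps the duplication only in part, showed a small difference that did not pass the test. B6 Ctrl libraries held 154.5, 146.1 and 165.0 CPM and B6 KD libraries 137.9, 121.0 and 159.7. D2 Ctrl libraries held 202.1, 173.1 and 162.2 CPM and D2 KD libraries 176.0, 154.0 and 177.8. The strains overlapped, although 4 of the 6 D2 libraries were above all B6 libraries. The fold was 1.18, with an interval of 1.04 to 1.34 that does not reach 2 (log2 fold change 0.24, SE 0.08, adjusted p = 0.0642 by edgeR). The call was made with DESeq2 (0.25, adjusted p = 0.0238), with the library total as a covariate (0.29, adjusted p = 0.0278), without B6 KD 3 (0.31, adjusted p = 0.0208) and without D2 Ctrl 3 (0.28, adjusted p = 0.0448). Btbd9 therefore sat at the edge of the threshold.

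Alad had the largest rise in D2 among the members. It was at 13.89, 14.41 and 13.82 CPM in B6 Ctrl and at 12.4, 13.86 and 15.5 in B6 KD. In D2 it was at 62.69, 69.85 and 67.41 CPM in Ctrl and at 65.1, 52.5 and 71.22 in KD. The lowest D2 library was 3.39 times the highest B6 library. The fitted fold was 4.63, and its 95% interval of 4.06 to 5.28 lay wholly above a doubling (log2 fold change 2.21, SE 0.09, adjusted p = 8.75e-09). By the size of this change Alad ranked 518 of 15853 genes.

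Hdhd3, the gene next to Alad in this set, was scarcer but moved the same way. It was at 3.883, 4.167 and 3.846 CPM in B6 Ctrl and at 3.547, 3.113 and 4.435 in B6 KD. In D2 it was at 10.13, 9.453 and 10.33 CPM in Ctrl and at 14.71, 8.916 and 11.32 in KD. All D2 libraries were at least 2.01 times the highest B6 library. The fitted fold was 2.81 with an interval of 2.28 to 3.45, also above a doubling (log2 fold change 1.49, SE 0.13, adjusted p = 8.78e-06). The fold of Hdhd3 was lower than that of Alad, and their intervals did not overlap. Of the 4 members that the published duplications take in wholly or in part, the intervals of Glo1, Alad and Hdhd3 lay above 2 and that of Btbd9 below it, all as averages over treatments.

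Gpnmb was nearly lost in D2 and was the member with the largest strain difference. B6 Ctrl libraries held 6.337, 32.88 and 9.716 CPM and B6 KD libraries 92.7, 62.57 and 33.31. In D2 the level was 1.146, 0.3962 and 1.371 CPM in Ctrl and 1.048, 0.8153 and 0.6642 in KD. These D2 levels rest on 37, 7 and 37 expected counts in Ctrl and 30, 31 and 21 in KD, so transcript was detected in every D2 library. The mean over D2 was 2.29% of the mean over B6. The fitted level was 34.5 times higher in B6, with an interval of 16.1 to 73.8 (log2 fold change -5.11, SE 0.50, adjusted p = 1.71e-05), which ranked 124 of 15853 genes by size. The lowest B6 library was 4.62 times the highest D2 library. Gpnmb was also the most variable member, with an SD of 88.6% of the mean in B6 Ctrl and 47.2% in B6 KD.

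Nnt showed the smallest difference among the 5 members called. It was at 27.24, 27.87 and 23.45 CPM in B6 Ctrl and at 23.13, 24.82 and 22.07 in B6 KD. In D2 it was at 30.2, 36 and 44.89 CPM in Ctrl and at 31.07, 30.09 and 34.25 in KD. The strains did not overlap, but the lowest D2 library was only 1.08 times the highest B6 library. The fitted fold was 1.39 with an interval of 1.2 to 1.61 (log2 fold change 0.47, SE 0.10, adjusted p = 0.00359), and the B6 mean was 0.72 of the D2 mean. Whether the D2 gene model held the exons that B6 lacks, and so could collect more reads, was not tested.

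Compared per kilobase of exon, the order of the members differed between the strains. In B6 the mean over both treatments was 9.64 CPM per kb for Glo1, 8.098 for Btbd9 and 7.472 for Alad. It was 6.077 for Gpnmb, 3.519 for Nnt and 2.805 for Hdhd3. The place of Gpnmb in B6 depended on the treatment. It came last in Ctrl with 2.504 CPM per kb, below Hdhd3 with 2.903. In KD it had 9.65, below only Glo1 with 9.936. In D2 Alad came first with 34.63 CPM per kb, followed by Glo1 with 21.06, Btbd9 with 9.571, Hdhd3 with 7.914, Nnt with 4.891 and Gpnmb with 0.1392. Lengths are the joined exons of each gene in the B6 annotation, which the transcripts expressed in hippocampus need not use in full. Hdhd3 thus moved from below Nnt in B6 to above it in D2.

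The second question was whether the strain difference held under each treatment. The same 5 members were called between the Ctrl groups, against 14.0% of all genes tested, and between the KD groups, against 15.0%. Both contrasts came from 1 fit of all 12 libraries with a shared estimate of the spread. Glo1 had a log2 fold change of 1.19 in Ctrl (SE 0.08, adjusted p = 1.1e-06 by edgeR) and 1.07 in KD (SE 0.08, adjusted p = 2.61e-06). For Alad these were 2.25 (adjusted p = 3.03e-07) and 2.18 (adjusted p = 3.92e-07), and for Hdhd3 1.33 (adjusted p = 0.000561) and 1.65 (adjusted p = 0.000121). These 3 genes were thus called as higher in D2 with either hairpin.

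The other members gave less even values. Gpnmb differed by -3.99 in Ctrl (SE 0.69, adjusted p = 0.00207 by edgeR) and by -6.22 in KD (SE 0.73, adjusted p = 0.000138) on the log2 scale. Without B6 Ctrl 2 the Ctrl value was -2.98 (adjusted p = 0.00232). With limma-voom it was -3.64 and missed the threshold (adjusted p = 0.0636). Nnt differed by 0.50 in Ctrl (adjusted p = 0.0288) and by 0.45 in KD (adjusted p = 0.0473). These 2 calls were close to the threshold: the Ctrl call was lost without any 1 of the 3 B6 Ctrl libraries, D2 Ctrl 2 or D2 Ctrl 3 (adjusted p 0.0575 to 0.108), and with the total or choroid covariate (0.107 and 0.0616). The KD call of Nnt was lost in 9 of 12 fits that each left out 1 library, all but those without B6 Ctrl 3, D2 Ctrl 1 or D2 Ctrl 3, with an adjusted p of up to 0.147. The averaged Nnt call was kept in all 12 of these fits. Btbd9 was called in neither (0.21, adjusted p = 0.349 in Ctrl; 0.28, adjusted p = 0.159 in KD), and without B6 KD 3 its KD value was 0.41 (adjusted p = 0.0493).

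**Figure D2:**
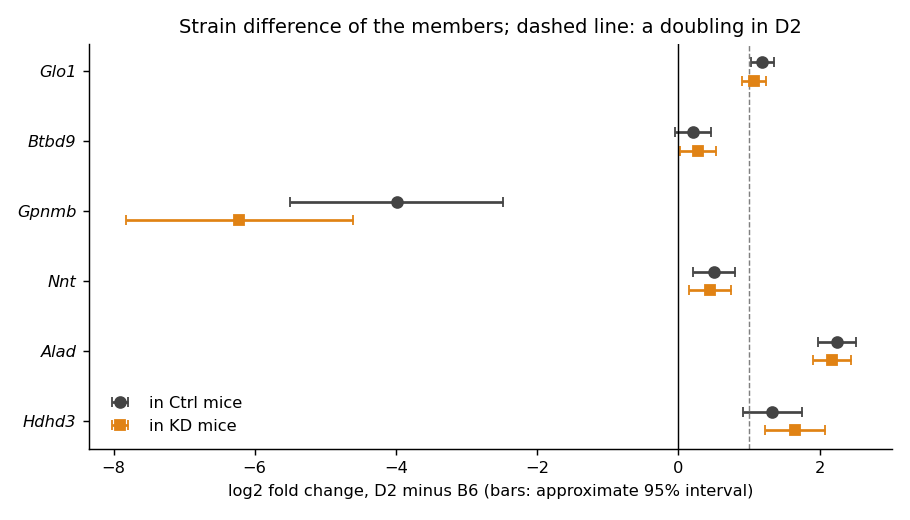
Log2 fold change of D2 minus B6 (horizontal axis) for each gene, fitted in Ctrl mice (circles) and in KD mice (squares), with approximate 95% intervals from 3 libraries per group; the solid line marks no difference and the dashed line a doubling in D2. Alad lies to the right of the doubling, Gpnmb far to the left, and the values in Ctrl and KD lie close together for every gene but Gpnmb.

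The third question was whether the knockdown moved the genes themselves. No member was called between KD and Ctrl in B6, where 2.64% of all genes were called by edgeR. None was called in D2 either, where the share over all genes was 0%, with 452 genes at an unadjusted p under 0.05 and 1 gene called by DESeq2. The target Hp1bp3 was itself not called by edgeR in either strain. Its log2 fold change was -0.54 in B6 (adjusted p = 0.076) and -0.25 in D2 (unadjusted p = 0.131). A missing call for a member is therefore not evidence that the knockdown left it unchanged. In B6 the log2 fold change of KD minus Ctrl was 0.09 for Glo1 (95% interval -0.08 to 0.25), -0.15 for Btbd9 (-0.41 to 0.11), -0.17 for Nnt (-0.46 to 0.13), -0.01 for Alad (-0.27 to 0.25) and -0.09 for Hdhd3 (-0.51 to 0.32). Each of these intervals included 0. In D2 the values were -0.03 for Glo1 (-0.19 to 0.13), -0.08 for Btbd9 (-0.34 to 0.18), -0.22 for Nnt (-0.52 to 0.08), -0.08 for Alad (-0.34 to 0.17) and 0.22 for Hdhd3 (-0.18 to 0.63), each with an adjusted p of 1. Without D2 KD 3 the members in D2 ran from -0.28 for Nnt to 0.24 for Hdhd3, with adjusted p-values of 0.681 and above.

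Gpnmb had the largest knockdown difference of the members. Its mean in B6 was 62.86 CPM ± 29.7 (SD, n = 3) in KD and 16.31 ± 14.45 (SD, n = 3) in Ctrl, a ratio of 3.85. All 3 KD libraries lay above all 3 Ctrl libraries, but the lowest KD library (33.31 CPM) and the highest Ctrl library (32.88 CPM) were almost equal. The share of all genes that separate in this way was not computed. The log2 fold change was 1.95 (95% interval 0.69 to 3.22) and did not pass the adjusted threshold by edgeR (unadjusted p = 0.00603, adjusted p = 0.0881). It passed with DESeq2 (1.93, adjusted p = 0.0112), with limma-voom (2.29, adjusted p = 0.0463) and without B6 Ctrl 2 (2.94, adjusted p = 0.0424). Over the alternatives that kept all libraries the adjusted p ran from 0.0112 to 0.114, so the call on Gpnmb depended on the tool and on 1 Ctrl library. In D2 the difference was -0.28 (95% interval -1.94 to 1.39, adjusted p = 1), an interval that stopped short of the B6 estimate but overlapped the B6 interval.

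Whether the knockdown altered the strain difference was tested as the interaction of strain and treatment, in which a negative value means that D2 changed less, or fell more, than B6. No member was called, and neither was any other gene (0%), with 937 genes at an unadjusted p under 0.05 and 11 genes called by DESeq2. The interaction was -0.12 for Glo1 (95% interval -0.35 to 0.11), 0.07 for Btbd9 (-0.30 to 0.44), -0.05 for Nnt (-0.47 to 0.37), -0.07 for Alad (-0.43 to 0.29) and 0.32 for Hdhd3 (-0.27 to 0.90), with adjusted p-values from 0.956 to 0.998 by edgeR. Set beside the strain difference of Alad, 2.21 on the same scale, its interval stayed close to 0. For Gpnmb the interaction was -2.23 (95% interval -4.31 to -0.14, unadjusted p = 0.0383, adjusted p = 0.824). A difference between the strains in the response of Gpnmb was therefore not detectable after correction.

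**Figure D3:**
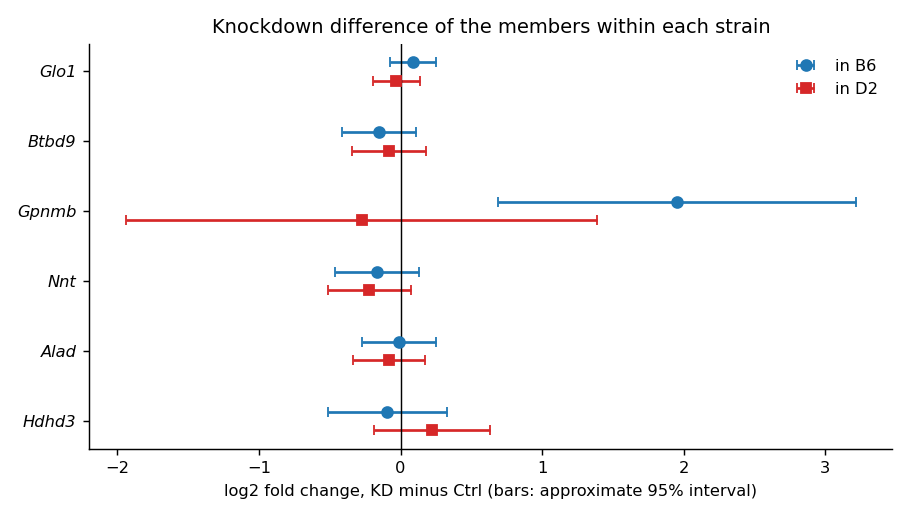
Log2 fold change of KD minus Ctrl (horizontal axis) for each gene in B6 (circles) and D2 (squares), with approximate 95% intervals from 3 libraries per group. All intervals include 0 except that of Gpnmb in B6, at 1.95, whose adjusted p-value was 0.0881.

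Cell type markers were examined beside Gpnmb because it is a gene of phagocytic cells. In bulk tissue fewer cells of a type and less RNA per cell cannot be told apart. The summed level of 6 microglia markers was 389, 370 and 339 CPM in B6 Ctrl and 667, 630 and 433 in B6 KD. All 6 markers had a positive estimate (median log2 fold change 0.65), although none was called. Astrocyte markers overlapped in sum, with 4010, 3960 and 4810 CPM in B6 Ctrl and 6430, 4740 and 5490 in B6 KD, and 4 of 5 had a positive estimate. Aqp4, the water channel of astrocyte endfeet, was the only marker of the 9 lists called with the knockdown in B6, rising from 171 ± 20.6 to 393 ± 32.8 CPM (SD, n = 3; log2 fold change 1.2, adjusted p = 0.0326 by edgeR). Gfap, an intermediate filament gene of astrocytes, had an estimate of 1.70 (adjusted p = 0.0981). Endothelial markers summed to 168, 192 and 155 CPM in B6 Ctrl and to 216, 193 and 192 in B6 KD. Choroid plexus markers summed to 82.5, 2760 and 158 CPM in B6 Ctrl and to 151, 4210 and 5130 in B6 KD. Meningeal fibroblast markers summed to 93.0, 178 and 65.2 CPM in B6 Ctrl and to 120, 159 and 171 in B6 KD.

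The library B6 Ctrl 2, highest in Gpnmb among the Ctrl, was also the highest of them in choroid plexus, meningeal and endothelial markers. It was not the highest of them in microglia or astrocyte markers. B6 KD 1, highest in Gpnmb of all libraries, had a low choroid plexus sum and the highest microglia, astrocyte and endothelial sums of the B6 libraries. Adding a choroid plexus score to the edgeR fit left the Gpnmb difference in B6 at 1.95 (adjusted p = 0.114). With that score 0 genes were called between KD and Ctrl in B6, against 418 without it. The part of microglia, astrocytes, endothelium, choroid plexus and meninges in the Gpnmb difference was not tested. The melanocyte markers summed to 4.13 to 6.81 CPM in B6 and to 11.1 to 13.2 in D2, and Mlana never exceeded 10 counts. Most of that sum was Tyr, the tyrosinase gene, at 4.13 CPM in B6 and 10.5 in D2 (log2 fold change 1.35, adjusted p = 1.86e-06), while Dct and Pmel were not called (adjusted p = 0.0874 and 0.573). Between the strains the microglia sums overlapped, with 334 to 507 CPM in D2 Ctrl and 332 to 510 in D2 KD. Only 1 of the 6 microglia markers had a positive estimate for D2 minus B6 (median log2 fold change -0.15). Tmem119 was the only one called, at 27.4 CPM in B6 and 19.4 in D2 (-0.46, adjusted p = 0.027 by edgeR).

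**Figure D4:**
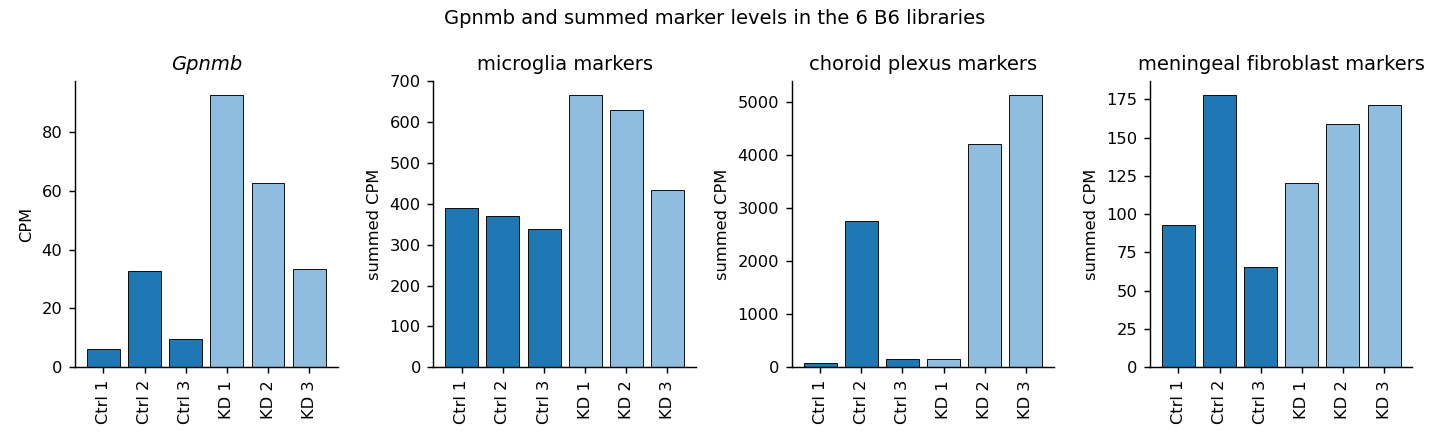
Gpnmb (left, CPM) and the summed levels of microglia, choroid plexus and meningeal fibroblast markers (summed CPM) in the 3 Ctrl and 3 KD libraries of B6. Gpnmb was highest in KD 1, where microglia markers were also highest, and among the Ctrl it was highest in Ctrl 2, where choroid plexus and meningeal markers were highest. Endothelial markers, not drawn, were highest among the Ctrl in Ctrl 2 and highest of the B6 libraries in KD 1.

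Genes around the 4 loci show where along the chromosome the strain difference held. The 4 tested genes nearest on each side of each locus were compared in the averaged contrast, and 13 of these 32 neighbors were called, 6 higher and 7 lower in D2, where 21.3% of all tested genes were called. Strain differences near the members thus went in both directions. Around Glo1 and Btbd9, 3 of 8 neighbors were called and all were higher in D2: the ubiquitin ligase gene Rnf8 (log2 fold change 0.49), Ccdc167 (1.14) and the cholesterol transporter gene Abcg1 (0.42). Zfand3, directly beside Btbd9, was at 78.4 CPM in B6 and 79.9 in D2 (0.03, adjusted p = 0.857). Glp1r, the receptor of glucagon-like peptide 1 and the nearest tested gene beyond Glo1, was scarce, at 0.983 CPM in B6 and 1.29 in D2 (0.37, 95% interval -0.26 to 1.00, adjusted p = 0.452). A doubling of Glp1r lay at the upper end of that interval and could not be told from no change at this depth. Dnah8, which the annotation places between Glo1 and Glp1r, was not analysed here. The breakpoints of the duplication were not examined, so Glp1r need not lie outside it.

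The Alad and Hdhd3 locus changed in both directions within a short stretch. Bspry, directly beside Hdhd3, was 2.09 times higher in D2 (0.771 against 1.62 CPM, log2 fold change 1.06, SE 0.18, adjusted p = 0.00108). On the other flank Pole3, a subunit of DNA polymerase epsilon and the gene directly beside Alad, was at 24.0 CPM in B6 and 7.31 in D2 (log2 fold change -1.71, adjusted p = 2.4e-07). Wdr31, beyond Bspry, was at 34.8 CPM in B6 and 2.96 in D2 (-3.54, adjusted p = 1.13e-08). Cdc26, a subunit of the anaphase-promoting complex, and the zinc finger gene Zfp618 were also lower in D2 (-0.72 and -2.30), while Prpf4 (0.09), Rgs3 (-0.19) and 4933430I17Rik (-0.14) were not called. The rise in D2 was thus found in the 3 consecutive tested genes Bspry, Hdhd3 and Alad, and the called genes on both sides of them were lower.

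Near Gpnmb, 2 of 8 neighbors were called. Malsu1, the next tested gene on its 3′ side, was lower in D2 (log2 fold change -0.49, adjusted p = 0.00192) and Igf2bp3, an RNA-binding protein gene, was higher from a level near the limit of detection (0.261 CPM in B6, 1.27 in D2, log2 fold change 2.26). Tmem176a, the nearest tested gene on the other side, was at 13.5 and 17.4 CPM (0.37, adjusted p = 0.109). None of the 8 neighbors fell to the extent of Gpnmb, the lowest estimate being -0.49 for Malsu1. On one side of Nnt, 4833420G17Rik and 3110070M22Rik were called as lower in D2 (-1.73 and -1.81). Paip1, directly beside Nnt, was at 70.6 CPM in B6 and 70.0 in D2 (-0.01, adjusted p = 0.927).

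**Figure D5:**
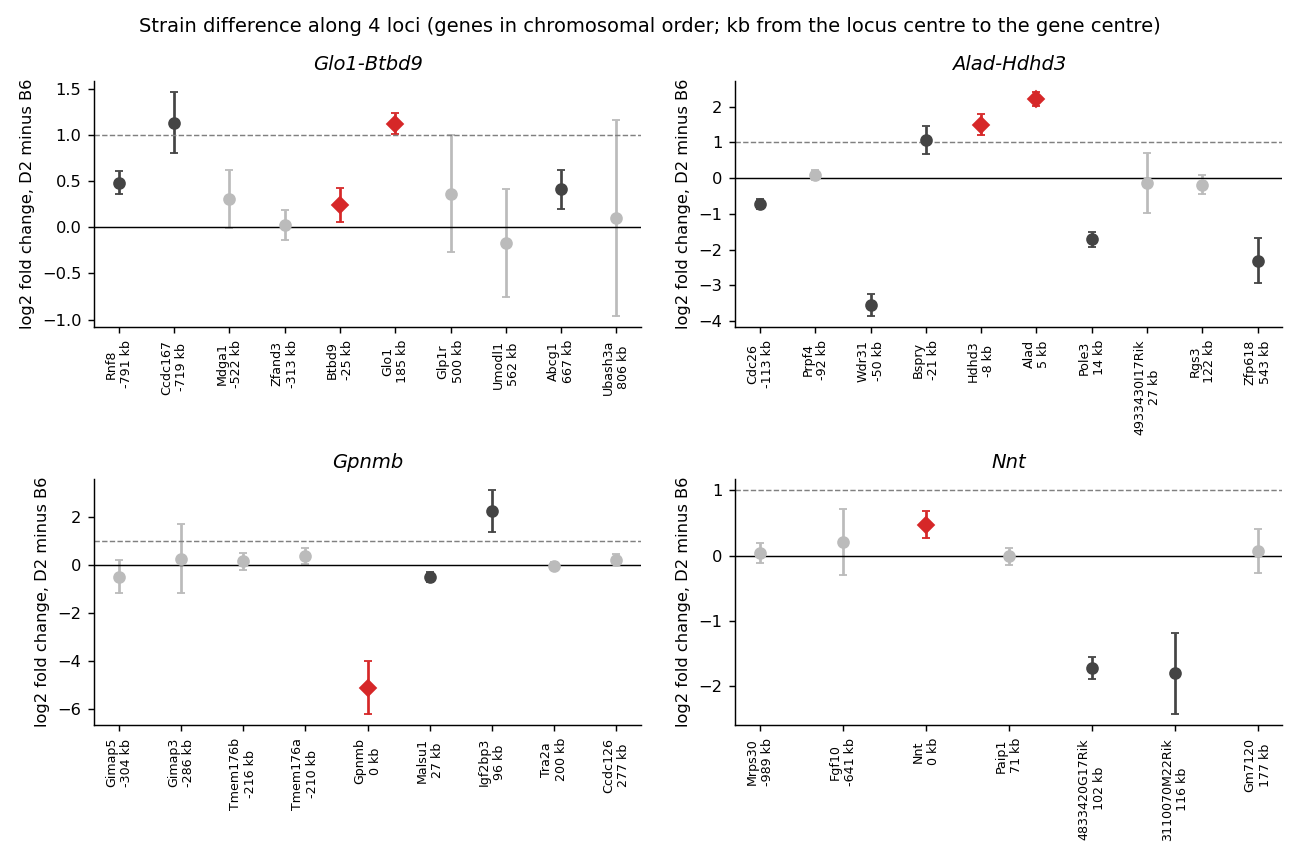
Log2 fold change of D2 minus B6, averaged over treatments, for the members (diamonds) and those of the 4 tested genes nearest on each side of each locus that lie within 1000 kb of its center (dark circles, called; pale circles, not called), in chromosomal order and with approximate 95% intervals; labels give the distance in kb from the locus center. Bspry, Hdhd3 and Alad form a run of higher values in D2, and Gpnmb falls far below its neighbors.

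The partners of the members in their pathways were compared next, from lists of textbook genes, against 8.64% of all tested genes called as higher and 12.7% as lower in D2 and a median log2 fold change of 0.02 over all of them. Of 12 other genes of methylglyoxal and glutathione metabolism, 2 were higher and 3 lower in D2 (median -0.03). Glod4, a relative of Glo1, was higher (log2 fold change 0.61), as was the glutathione reductase gene Gsr (0.68), while Gclm, the modifier subunit of the rate-limiting enzyme of glutathione synthesis, was lower (-1.34). Hagh, glyoxalase 2, which acts directly after Glo1, was at 59.6 CPM in B6 and 58.0 in D2 (-0.04, adjusted p = 0.819).

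Of 15 other genes of heme synthesis and breakdown, 1 was higher and 3 were lower in D2 (median 0.01). Ppox, the second to last enzyme of the pathway, was lower (log2 fold change -1.06, adjusted p = 2.71e-06). Hmox2, the constitutive heme oxygenase, was slightly lower (-0.17). Alas1, the enzyme before Alad, was at 57.5 CPM in B6 and 65.4 in D2 (0.19, adjusted p = 0.0928). The other heme genes thus did not share the rise of Alad as a group.

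Of 14 mitochondrial redox genes, 3 were higher and 1 was lower in D2 (median 0.01). The glutamate dehydrogenase gene Glud1 was higher (log2 fold change 0.45), Gsr was higher as above, and the peroxiredoxin gene Prdx5 was lower (-0.45). Of 13 genes of iron handling and restless legs risk, set beside Btbd9, only the ubiquitin ligase scaffold gene Cul3 was called (-0.30, adjusted p = 0.0301). Of 9 HAD-type phosphatases, 3 were higher and 1 was lower in D2, with Nanp, a phosphatase of sialic acid synthesis, at 2.17, Pgp at 0.40 and Hdhd2 at -0.43.

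Genes of phagocytic microglia and of the MITF family of transcription factors, which are known to act on Gpnmb, were compared under the knockdown as well. In B6, 16 of 17 had a positive estimate, with a median log2 fold change of 1.11 against 0.00 over all genes tested, but only the lysosomal protease gene Ctsd was called (1.11, adjusted p = 0.0488), where 2.64% of all tested genes were called. The choroid plexus markers had a higher median in the same comparison (1.70, with 7 of 7 positive and none called). In D2, 12 of 17 were positive with a median of 0.14, and none was called. Between the strains Lpl, a lipoprotein lipase, was higher in D2 (1.47), and Cd68, a lysosomal protein of macrophages, was lower (-1.13, adjusted p = 0.0224). Mitf itself was at 15.8 CPM in B6 and 18.7 in D2 (0.29, adjusted p = 0.333), with no detectable fall beside that of Gpnmb. In the other lists the knockdown in B6 gave 2 calls, the folate enzyme gene Aldh1l2 (0.90, adjusted p = 0.0396) and the glutaredoxin gene Glrx2 (-0.34, adjusted p = 0.0386).

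The genes whose pattern over the 12 libraries was most like each member were found by the root mean square (RMS) difference between standardized log2 profiles, among 14181 genes with a mean of at least 1 CPM. Glo1 was closest to Gm12070 (RMS difference 0.0613) and 0610012G03Rik (0.0909), and Alad to Rpl5 (0.0928) and Gm6682 (0.0929), all of which were higher in D2. Hdhd3 was closest to Gcn1l1 (0.147) and Ubtd2 (0.164), and Gpnmb to Fgd3 (0.184) and Wasf2 (0.238). The matches were looser for Nnt, with Plxnb1 (0.269) and Crat (0.297), and loosest for Btbd9, with Mphosph10 (0.395) and Diras2 (0.402). Rpl5, a ribosomal protein gene, has near-identical pseudogene copies, so the split of its reads is uncertain. For the members themselves 71 of 72 expected counts were exactly whole as deposited. Over all genes 19.13% to 21.2% of the values in a B6 library and 9.9% to 11.65% in a D2 library were not whole, so the share of genes with divided reads differed between the strains, and its part in the strain differences was not tested.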

How the data were processed

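Hippocampal mRNA libraries (KAPA mRNA Hyper Prep) of 12 mice were grouped by the strain and treatment labels, 3 per group. Libraries are numbered in order of deposit, which pairs nothing, and nothing states more on their independence than that each is 1 mouse. The authors aligned the reads of each mouse to its own strain's genome and estimated gene expression with RSEM 1.2.12 and Bowtie2 2.2.0; the submitters' processing notes name GRCm38. The deposited expected counts are per gene and not normalized. The authors also deposited a signal, the DESeq2 normalized count, from which whole reads were recovered for 100% of 266784 values within 0.01 reads; these entered as an alternative. All samples were sequenced again and joined reads exist for most; which lack them is not given in the sources used here.

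Expected counts were rounded, genes filtered with filterByExpr (15853 tested), and fitted in edgeR 4.0.16 by its quasi-likelihood method (TMM, robust, 1 mean per group) in R 4.3.3. Standard errors were derived from the F statistic and are approximate, as are the intervals. The code was tested on simulated data. Alternatives used DESeq2 1.42.0, limma-voom (limma 3.58.1), other normalization, filter and covariates, and left out each library. Counting error, the inverse square root of the count, was 16.4% to 37.8% for Gpnmb in D2 and 7.54% to 11.9% for Hdhd3 in B6. It was at most 7.74% for the other member values. Positions and exon lengths are from GENCODE M21. 27 gene symbols turned into dates were restored. The named genes were the members, the target, the 4 tested genes nearest on each side of each locus, the 2 most similar genes per member, and called genes of 6 pathway lists, at most 3 each. Hagh, Alas1, Mitf, Ctsd, Aldh1l2 and Glrx2 were added after their values were seen. So were the markers Zbtb20, Prox1, Tmem119, Aqp4, Gfap, Mlana, Tyr, Dct and Pmel. Some genes under these rules are not reported here. The members and lists were chosen with earlier results of these data known.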

Additional observations from a re-analysis of the deposited data

How the results depend on the processing

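Each result was recomputed in 21 alternative fits, 12 of which left out 1 library each. The averaged strain calls of Glo1, Gpnmb, Nnt, Alad and Hdhd3 kept their direction and passed in all 21. Btbd9, not called, passed with DESeq2 (0.25) and with the library total as a covariate (0.29), and ran from 0.20 to 0.31 when 1 library was left out. The number of genes called between KD and Ctrl in B6 was 418, against 1688 with DESeq2 and 0 with the total or the choroid score as a covariate, and 0 to 790 when 1 library was left out, so a count of members called there carries little weight. In D2 it was 0, against 1 with DESeq2 and 0 to 1 with 1 library left out, and 11 genes were called for the interaction by DESeq2. Small estimates changed sign: with the total as a covariate the interaction was -0.0258 for Btbd9 and 0.0322 for Nnt, and with the choroid score 0.0314 for Nnt and 0.0390 for Alad. With 1 library left out, KD minus Ctrl ran from -0.128 to 0.0355 for Alad in B6, and in D2 from -0.149 to 0.0059 for Btbd9, -0.579 to 0.0048 for Gpnmb and -0.181 to 0.0326 for Alad. The interaction ran from -0.0045 to 0.195 for Btbd9, -0.159 to 0.111 for Nnt and -0.168 to 0.0461 for Alad. The causes were not tested. The fit without robust estimation was chosen after the data were seen. No paired analysis was possible because the labels number no replicates. Depth limits Gpnmb in D2, which rests on 7 to 37 expected counts per library.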
